A study of Mus musculus with 6 samples.

Results

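The genes described here are 49 genes of hepatic stellate cells and of the extracellular matrix, taken by gene symbol from a table of 34745 genes measured in mouse liver. All 49 symbols were found, 1 row each. Of these, 40 had enough counts for testing, as had 12556 genes of the table, and 9 (Lama2, Dpt, Mgp, Timp1, Lox, Loxl1, Acta2, Thy1 and Lhx2) did not.

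Stellate cells lie between the hepatocytes and the sinusoidal endothelium, where they store vitamin A and, at rest, make little fibrous matrix. After injury they can turn into contractile cells that express smooth muscle actin and secrete fibrillar collagens, and enzymes and inhibitors then cross-link and trim the matrix. Regrowth of the liver after partial hepatectomy (PHx), in which lobes are resected, involves remodelling of this matrix around the dividing hepatocytes.

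RNA was sequenced from 6 libraries taken 48 h after PHx. A set of 3 libraries came from mice labelled Sox9HKO (HKO below) and 3 from Sox9f/f mice (WT below), which carry the unrecombined conditional allele, and all animals were 12-week-old C57BL/6 mice. The deleted gene, Sox9, codes for a transcription factor found in biliary cells and in hepatocytes after injury. Neither the driver of the deletion nor the number of mice behind a library is given in the sources used here. The p-values therefore cover the spread among these libraries only, which may be technical.

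The libraries held 16659778 to 21168233 counts. HKO 2 stood apart: 25.9% of its counts came from mitochondrial genes, against 12.1% to 16.3% in the other 5 libraries. By their labels the libraries are liver, with hepatocyte as cell type. The 12 hepatocyte markers summed to between 96598 and 118759 CPM (counts scaled to sequencing depth with TMM factors) in every library, but markers of endothelium, macrophages and stellate cells were counted in every library too. RNA of other cells was thus present, and in bulk RNA fewer cells of a type and less RNA per cell cannot be told apart. The 49 genes took 0.215% to 0.411% of the counts, and fibronectin (Fn1), which hepatocytes themselves secrete, made up 60.2% to 85.8% of that. Without Fn1 they summed to 1751 CPM in HKO 2, to 500 and 539 CPM in HKO 1 and HKO 3, and to between 452 and 528 CPM in WT. All 22 endothelial markers were highest in HKO 2 as well, and the part of other cell types in the results was not tested.

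Compared with WT, 6 members were higher in HKO and 1 was lower. The 6 were the protease inhibitor genes Timp3 and Timp2, the matrix genes Ecm1 and Dcn, and Reln and Rgs5, genes of resting stellate cells and of pericytes. The 1 that was lower was Col15a1, a collagen gene of basement membranes. By edgeR's quasi-likelihood test with Benjamini-Hochberg adjustment over all genes tested, and a threshold of 0.05 on the adjusted p, the 7 calls compare with 23.2% of all tested genes called in either direction. The rises were 15% of the 40 tested members, where 12.1% of all tested genes were higher. The fall was 2.5% of the members, where 11.2% of all tested genes were lower. The share that rose thus lay near that of the whole table. Leaving out HKO 2, the same 6 rose and 3 fell, Col15a1 being joined by Nid1 and Ngfr. That is 15% and 7.5% of the tested members, against 12.5% and 12.2% of all genes (24.7% in either direction). The count of 6 fell to 1 without WT 3 and to 2 without WT 2. Over all tested genes the count higher fell as well, from 1516 to 722 without WT 3 and to 952 without WT 2. The count of members was 3 by limma-voom and with a replicate block, where Dcn, Reln and Rgs5 were not called.

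The median log2 fold change (HKO minus WT) of the tested members rested on HKO 2. It was 1.13 with all 6 libraries and 0.04 without HKO 2, while the median of all tested genes was 0.02. Of the 40 tested members 37 had a positive fold change with all libraries, and 16 of them turned negative when HKO 2 was left out. HKO 2 was the highest of the 6 libraries in 46 of the 49 genes. Among the tested members this was 92.5%, against 16.4% of all tested genes. It was at least 2-fold above the mean of HKO 1 and HKO 3 in 87.5% of the tested members, against 8.55% of all tested genes. The HKO values all lay above the WT values in 27.5% of the tested members (22.6% of all tested genes) and all below them in 5.0% (21.6% of all tested genes). HKO 1 and HKO 3 alone lay above all WT values in 27.5% (27.3% of all tested genes) and below them in 22.5% (26.6% of all tested genes).

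**Figure D1:**
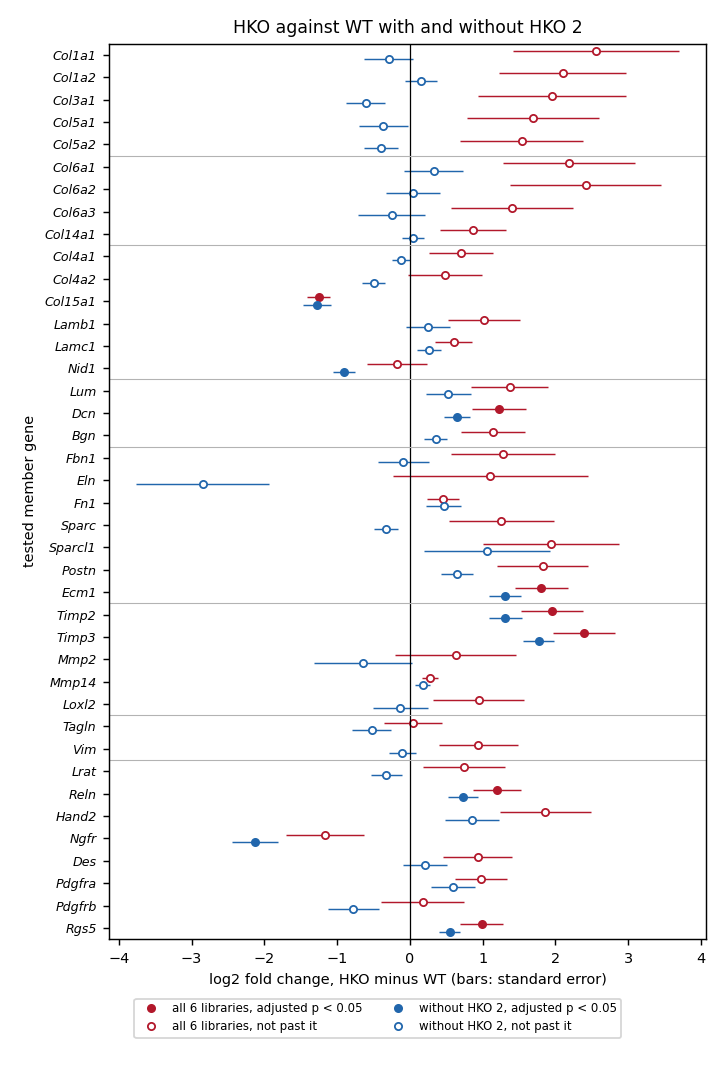
Log2 fold change of HKO against WT for each of the 40 tested members (horizontal axis, bars are standard errors), with all 6 libraries in red and without HKO 2 in blue, filled where the adjusted p is below 0.05. The red points of the collagens other than Col15a1 lie to the right of 0 with wide errors and their blue points further left, while Timp3, Timp2, Ecm1, Dcn, Reln, Rgs5 and Col15a1 are filled in both colours.

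Among the genes of matrix remodelling, Timp3 and Timp2 rose, 2 of the 5 tested, and none fell. Of all tested genes 12.1% rose and 11.2% fell. Timp3 encodes an inhibitor of metalloproteinases that binds to the matrix itself. HKO 1, 2 and 3 had 12.2, 36.2 and 15.2 CPM, whereas WT 1, 2 and 3 had 3.06, 4.66 and 4.33 CPM. The groups did not overlap, and the lowest HKO value was more than 2 times the highest WT value. The means were 21.2 ± 13.1 and 4.02 ± 0.849 CPM (SD, n = 3). By edgeR this was 2.39 on the log2 scale (SE 0.42, adjusted p = 0.00701), or 1.77 (SE 0.21, adjusted p = 0.000931) without HKO 2. Its call held when any 1 library was left out. Timp3 (ENSMUSG00000020044, GRCm38, chromosome 10, 86300372 to 86349506, plus strand) lies inside Syn3, whose exons overlap its own on the opposite strand, and since library preparation as described did not mark the strand, reads of the pair cannot be told apart.

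Timp2, whose product inhibits metalloproteinases and also takes part in activating MMP2 at the cell surface, followed at lower CPM. It was at 4.996, 15.3 and 6.29 CPM in HKO 1, 2 and 3 and at 2.56, 1.97 and 2.32 CPM in WT. Again every HKO library was above every WT library. Its log2 fold change was 1.95 (SE 0.43, adjusted p = 0.0160 by edgeR), or 1.31 (adjusted p = 0.00501) without HKO 2, and leaving out WT 2 or WT 3 ended the call (adjusted p = 0.0589 and 0.0635). For these 2 genes, as for every gene whose groups do not overlap, an exact permutation test (two-sided) gave p = 0.1, the smallest that 3 against 3 libraries allow.

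Timp1, the inhibitor gene best known for its induction in activated stellate cells, was counted almost only in HKO 2. It had 127 counts in HKO 2, 0 in HKO 1, HKO 3 and WT 3, and 4 each in WT 1 and WT 2. On the CPM scale that is 7.39 CPM in HKO 2 and at most 0.225 CPM elsewhere, where a count of 0 allows up to 0.137 to 0.183 CPM (3 counts, counting error only). The membrane-bound collagenase gene Mmp14 was the remodelling gene with the highest level per length. It was at 62.1, 75.4 and 61.0 CPM in HKO and 55.5, 54.3 and 53.9 CPM in WT. The groups did not overlap, but the log2 fold change of 0.28 (SE 0.11) did not pass the test (adjusted p = 0.0970 by edgeR), nor did it without HKO 2 (0.18, adjusted p = 0.243). The gelatinase gene Mmp2 and the crosslinking enzyme gene Loxl2 did not pass either. The related Lox and Loxl1, too low to test, stood at 2.56 and 2.09 CPM in HKO 2 and at most 0.337 and 0.722 CPM in the other libraries.

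Of the matrix glycoprotein and elastic fibre genes, 1 of 7 tested rose and none fell (12.1% and 11.2% of all tested genes). Ecm1, a secreted protein gene that in mouse liver restrains the activation of latent TGF-beta, was at 33.0, 71.9 and 30.7 CPM in HKO 1, 2 and 3 and at 16.9, 9.49 and 12.3 CPM in WT. The HKO libraries were all above the WT libraries. Its log2 fold change was 1.81 (SE 0.36, adjusted p = 0.0112 by edgeR), or 1.304 (SE 0.22, adjusted p = 0.00429) without HKO 2, and the call was lost without WT 3 (adjusted p = 0.0531). Postn, which encodes the matricellular protein periostin, was also without overlap, at 4.41, 24.4 and 5.70 CPM in HKO and 3.33, 2.81 and 3.54 CPM in WT, but did not pass (adjusted p = 0.0703). Without HKO 1 it did (log2 fold change 2.19).

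Fn1 was the most abundant member by far and was among the few that HKO 2 did not lead. HKO 1, 2 and 3 had 2154, 2645 and 3265 CPM, whereas WT had 1501, 2458 and 1931 CPM. The groups overlapped, and the log2 fold change of 0.45 (SE 0.22) did not pass the test (adjusted p = 0.176 by edgeR, and 0.47 with adjusted p = 0.192 without HKO 2). Sparc, a collagen-binding glycoprotein gene, was high in HKO 2 alone. It was at 151 CPM in HKO 2, at 22.5 and 20.5 CPM in HKO 1 and HKO 3, and at 30.9, 22.1 and 27.8 CPM in WT. The elastin gene Eln reached 8.08 CPM in HKO 2, with 0.161 and 0.182 CPM in HKO 1 and HKO 3, and WT had 2.33, 0.281 and 1.22 CPM. Fbn1, the microfibril gene on which elastin is laid down, was at 12.97 CPM in HKO 2 and 1.40 to 3.01 CPM elsewhere. Neither passed the test with or without HKO 2. Dpt and Mgp, both too low to test, had 21 and 17 counts in HKO 2 and at most 5 and 2 in any other library.

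Of the 3 proteoglycan genes Dcn rose (12.1% of all tested genes rose) and the other 2 did not pass the test. Dcn encodes decorin, a small leucine-rich proteoglycan that binds collagen fibrils and TGF-beta. It was at 72.7, 185 and 75.9 CPM in HKO 1, 2 and 3 and at 58.9, 37.9 and 45.7 CPM in WT. The groups did not overlap, and the gap between HKO 1 and WT 1 was smaller than the range of the WT libraries. The log2 fold change was 1.22 (SE 0.37, adjusted p = 0.0461 by edgeR) and 0.65 (SE 0.18, adjusted p = 0.0308) without HKO 2. The call was lost without WT 1, WT 2 or WT 3 (adjusted p = 0.0653, 0.134 and 0.140). Bgn (biglycan) was without overlap too, at 40.5, 126 and 38.5 CPM against 37.1, 28.8 and 27.0 CPM, with an adjusted p of 0.0993. Lum (lumican) overlapped between the groups, at 7.47, 24.3 and 6.84 CPM in HKO and 7.33, 3.82 and 3.66 CPM in WT, and had an adjusted p of 0.0973.

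Among the genes of stellate cell identity, receptors and mural cells, 2 of 8 tested rose and none fell. The shares over all tested genes were 12.1% and 11.2%. Reln encodes reelin, a secreted glycoprotein that resting stellate cells express in the liver. It was at 25.3, 66.2 and 36.5 CPM in HKO 1, 2 and 3 and at 22.2, 15.5 and 18.1 CPM in WT. Its log2 fold change was 1.19 (SE 0.33, adjusted p = 0.0354 by edgeR), and 0.73 (SE 0.20, adjusted p = 0.0329) without HKO 2. The call was lost without HKO 3 (adjusted p = 0.0608) or any 1 WT library (adjusted p = 0.0571, 0.110 and 0.114 without WT 1, 2 and 3). Rgs5, a regulator of G protein signalling found in pericytes and stellate cells, was at 25.7, 50.4 and 22.6 CPM in HKO and 18.7, 14.4 and 16.6 CPM in WT. Neither gene overlapped between the groups. For Rgs5 the log2 fold change was 0.99 (SE 0.29, adjusted p = 0.0458 by edgeR), or 0.55 (SE 0.15, adjusted p = 0.0325) without HKO 2, and the call was lost without HKO 1 (adjusted p = 0.0587) or any 1 WT library (adjusted p = 0.0800, 0.132 and 0.130).

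Ngfr went the other way. It encodes the low-affinity neurotrophin receptor, which stellate cells carry. It was at 0.537, 2.15 and 0.547 CPM in HKO 1, 2 and 3 and at 2.39, 2.42 and 2.38 CPM in WT, that is 10, 37 and 12 counts against 43, 43 and 39. All 3 HKO libraries were below WT, with HKO 2 close to it. With all libraries the log2 fold change of -1.17 (SE 0.54) did not pass (adjusted p = 0.150 by edgeR), and without HKO 2 it was -2.13 (SE 0.32, adjusted p = 0.00252).

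The other identity genes tested did not pass in either fit. Lrat, whose enzyme esterifies retinol for storage and which defines stellate cells in the liver, was at 3.33, 17.4 and 4.60 CPM in HKO and 4.72, 4.94 and 5.31 CPM in WT. HKO 1 and HKO 3 were thus below all WT libraries and HKO 2 above them (adjusted p = 0.367). Hand2, a transcription factor gene of resting stellate cells, was at 1.72, 7.33 and 1.87 CPM in HKO and 1.28, 1.07 and 0.610 CPM in WT, without overlap (adjusted p = 0.0675). The intermediate filament gene Des was also without overlap, with an adjusted p of 0.192. The platelet-derived growth factor receptor genes Pdgfra and Pdgfrb overlapped between the groups (adjusted p = 0.0864 and 0.848), and Pdgfra passed without HKO 1 (log2 fold change 1.24). Lhx2, a transcription factor gene that keeps mouse stellate cells at rest, was untested at 1.34, 1.80 and 0.137 CPM in HKO and 0.278, 0.562 and 0.305 CPM in WT.

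The basement membrane genes gave the only fall, 1 of 6 tested, where 11.2% of all tested genes fell. Col15a1 encodes a collagen that joins basement membranes to the matrix around them. It was at 5.64, 6.34 and 6.52 CPM in HKO 1, 2 and 3 and at 12.5, 17.5 and 14.2 CPM in WT. The groups lay far apart, and HKO 2 lay between HKO 1 and HKO 3. The means were 6.17 ± 0.463 and 14.7 ± 2.52 CPM (SD, n = 3). By edgeR the log2 fold change was -1.25 (SE 0.16, adjusted p = 0.00196), or -1.27 without HKO 2 (adjusted p = 0.00256). The call held when any 1 library was left out. Col15a1 (ENSMUSG00000028339, GRCm38, chromosome 4, 47208161 to 47313167, plus strand) has exons that overlap Gm12426, an antisense gene.

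Nid1, which encodes nidogen, the linker between laminin and collagen IV, depended on HKO 2. It was at 23.3, 82.0 and 31.7 CPM in HKO and at 54.3, 50.7 and 49.3 CPM in WT. HKO 1 and HKO 3 lay well below every WT library and HKO 2 above them. The log2 fold change was -0.17 (SE 0.41, adjusted p = 0.786 by edgeR) with all libraries and -0.90 (SE 0.15, adjusted p = 0.00438) without HKO 2, and it turned to 0.12 without HKO 1 and to 0.02 without HKO 3. Its exons overlap those of Gm48682, an antisense gene.

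Collagen IV, the network collagen of basement membranes, is encoded in the liver chiefly by Col4a1 and Col4a2, a head-to-head pair on chromosome 8 whose first exons overlap. Col4a1 was at 43.7, 150.2 and 46.8 CPM in HKO and 44.2, 54.8 and 48.4 CPM in WT. By edgeR its log2 fold change was 0.71 (SE 0.44, adjusted p = 0.282), and it turned to -0.12 without HKO 2. Col4a2 was at 22.3, 93.7 and 25.6 CPM in HKO and 28.9, 39.4 and 33.1 CPM in WT (adjusted p = 0.528). For Col4a2, but not for Col4a1, HKO 1 and HKO 3 lay below all WT libraries (adjusted p = 0.0560 without HKO 2). The laminin chain genes Lamb1 and Lamc1 did not pass, and Lama2 was too low to test.

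The fibrillar collagens were high in HKO 2 and did not pass the test. Each of the 5 was 9.65 to 19.7 times higher in HKO 2 than in the mean of HKO 1 and HKO 3 (adjusted p from 0.117 to 0.222 by edgeR). Col3a1, the type III collagen gene and the highest of the 5 per length, was at 8.38, 137 and 8.98 CPM in HKO 1, 2 and 3 and at 18.7, 10.3 and 10.7 CPM in WT. HKO 1 and HKO 3 were below every WT library and HKO 2 was above all others. Its log2 fold change was 1.95 (SE 1.02, adjusted p = 0.199) and turned to -0.61 (SE 0.27, adjusted p = 0.136) without HKO 2. The type I collagen genes Col1a1 and Col1a2 were at 48.9 and 56.5 CPM in HKO 2, at most 2.95 and 6.29 CPM in HKO 1 and HKO 3, and at most 4.11 and 6.33 CPM in WT. The type V chains Col5a1 and Col5a2, which set fibril diameter, were at 19.2 and 24.8 CPM in HKO 2 and at most 2.94 and 3.78 CPM elsewhere.

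The collagens that attach to fibrils were also high in HKO 2. The 3 chains of the beaded-filament collagen VI (Col6a1, Col6a2 and Col6a3) were 9.07, 13.9 and 7.57 times higher in HKO 2 than in the mean of HKO 1 and HKO 3. Col14a1, which binds the surface of fibrils and had the highest level per length of this class, was at 12.6, 44.8 and 14.3 CPM in HKO and 14.4, 12.2 and 12.6 CPM in WT. HKO 1 and HKO 3 lay within the WT range. Its log2 fold change was 0.86 (SE 0.45, adjusted p = 0.200 by edgeR) with all libraries and 0.04 without HKO 2, and none of the 4 genes passed in either fit.

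Genes of the activated, contractile stellate cell were low outside HKO 2. Acta2, which encodes smooth muscle actin and defines that state, had 48 counts in HKO 2, 0 and 4 in HKO 1 and HKO 3, and 14, 2 and 8 in WT, too few for the test. Thy1, a surface marker of portal fibroblasts, had 24 counts in HKO 2 and at most 3 in any other library. Vim, the intermediate filament gene of mesenchymal cells, was at 9.08, 36.5 and 8.25 CPM in HKO and 11.0, 8.82 and 8.05 CPM in WT. Its log2 fold change of 0.94 (SE 0.55, adjusted p = 0.244 by edgeR) turned to -0.10 without HKO 2. Tagln, an actin-binding protein gene, was at 1.83, 4.07 and 1.46 CPM in HKO and 2.33, 2.25 and 2.502 CPM in WT, and its exons overlap Pcsk7 on the opposite strand. Neither Vim nor Tagln passed the test in either fit.

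Opposite-strand genes also overlap exons of Reln, Fn1, Eln, Fbn1, Des, Hand2, Col5a1, Pdgfra, Lox, Loxl2 and Lama2, as does Gm15419 those of Col4a2. Same-strand miRNA genes overlap those of Ecm1, Col3a1, Loxl2 and Pdgfra. These levels are uncertain to that extent.

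**Figure D2:**
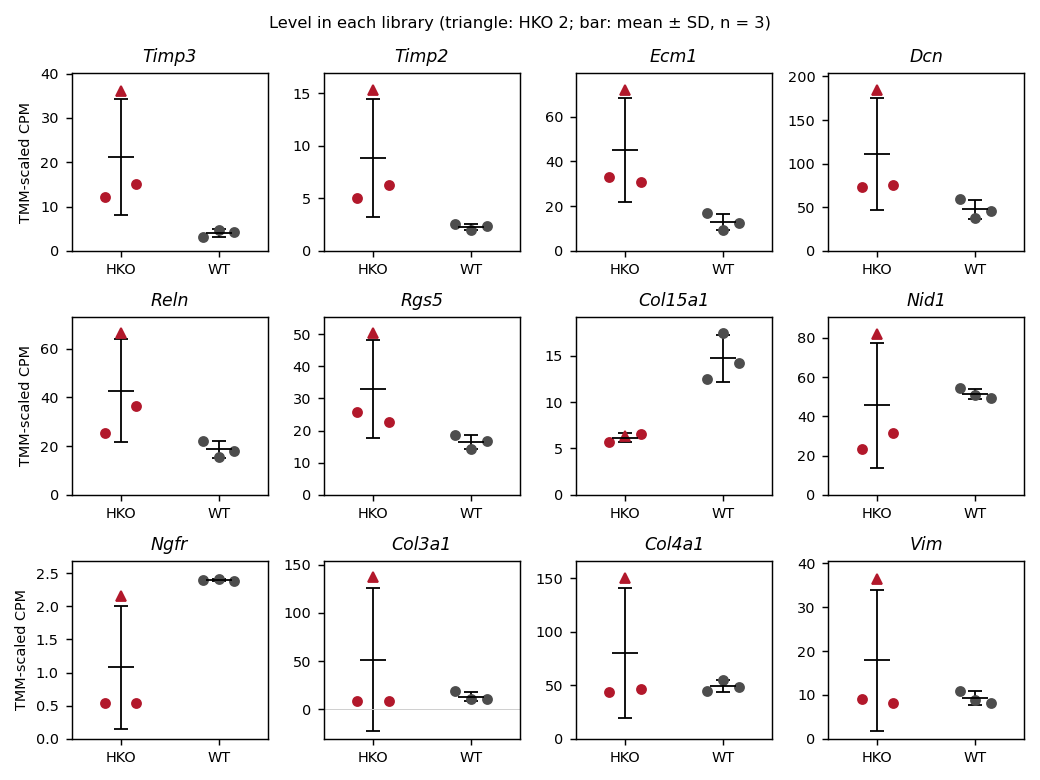
Level of 12 members in each library (vertical axis, TMM-scaled CPM from 0 or below), with HKO in red, WT in grey, HKO 2 as a triangle, and the mean ± SD of 3 libraries as bars. In Timp3, Timp2, Ecm1, Dcn, Reln and Rgs5 all red points lie above the grey ones, in Col15a1 and Ngfr all lie below them, and in Col3a1, Col4a1 and Vim HKO 2 alone stands above WT.

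Set side by side, the classes differed in how far HKO 2 exceeded the other HKO libraries. On the log2 scale the median excess of HKO 2 over the mean of HKO 1 and HKO 3 was 3.33 for the fibrillar collagens, 3.01 for the collagens attached to them and 2.46 for the elastic fibre and glycoprotein genes. For the remodelling genes it was 2.19, for activation and contraction 2.63, for stellate identity and receptors 1.68, for the proteoglycans 1.68 and for the basement membrane 1.67. The median over all tested genes was -0.01. The members with the smallest excess were Fn1, Col15a1 and Mmp14, at -0.0037, 0.06 and 0.29. These class medians include genes with few counts and are descriptions without a test.

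**Figure D3:**
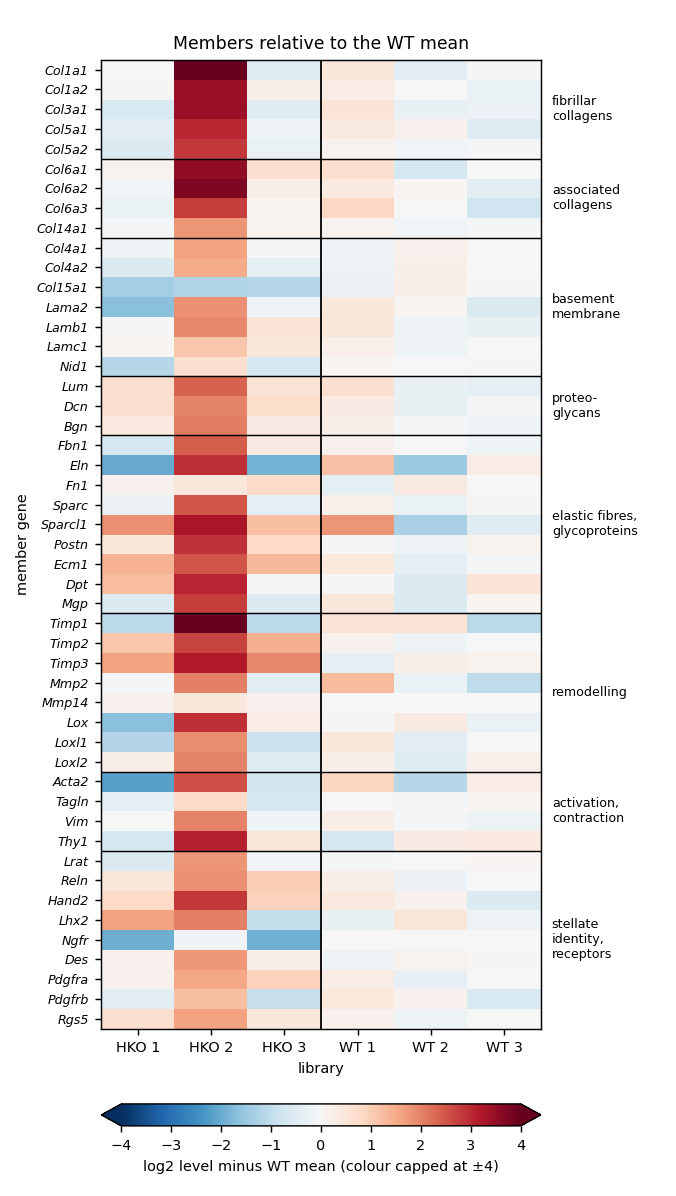
Log2 level of each of the 49 members in each library minus the WT mean (colour, capped at 4 in either direction, red higher), in rows grouped by role and columns by library. The HKO 2 column is red for nearly all rows, with Col15a1 blue and Ngfr, Fn1 and Mmp14 pale, while the columns of HKO 1 and HKO 3 mix red rows (Timp3, Timp2, Ecm1) with blue ones (Col15a1, Nid1, Ngfr).

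Compared per length, by the deposited FPKM (fragments per kilobase of transcript, scaled to depth), the WT levels ran from Fn1 at 108 ± 21.6 FPKM (SD, n = 3) over Dcn at 23.0 ± 6.32, Mmp14 at 9.46 ± 0.609, Nid1 at 8.53 ± 0.842 and Col4a1 at 6.95 ± 0.458 FPKM. Mmp14 was above Nid1 in each WT library, while the order of Col4a1 and Sparc (6.13 ± 1.29 FPKM) differed between WT libraries. The fibrillar collagen with the highest level, Col3a1, was at 1.25 ± 0.512 FPKM and Col15a1 at 1.57 ± 0.202 FPKM, and their order too differed between WT libraries. Lrat at 0.932 ± 0.0438, Reln at 0.698 ± 0.162 and Ngfr at 0.695 ± 0.0324 FPKM followed, and Timp3 was at 0.442 ± 0.0741 FPKM.

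Promoter sequences were read for members of each pattern: Timp3, Ecm1 and Rgs5 as genes higher in all HKO libraries, Col15a1 and Nid1 as genes lower in HKO 1 and HKO 3, and Col3a1 as a gene led by HKO 2. The patterns overlap, since Col3a1 was also below WT in HKO 1 and HKO 3, and all of these genes except Col15a1 were highest in HKO 2. They are from RefSeq (GRCm38.p6) and hold the 250 bases before the RefSeq start, for Timp3 the first 210 of them, since its gene in the deposited table starts 40 bases earlier. Windows were found for 32 of the 49 members. Capitals mark matches on either strand to TATAAA as TATA box, to CCAAT as the box bound by NF-Y, to GGGCGG as GC box, to CATTCC as the site of TEAD factors or to the CArG box of serum response factor, and no match of the 6 genes overlaps another.
Timp3 is chr10:86300162-86300371, plus strand, Ecm1 is chr3:95739570-95739819, minus strand, Rgs5 is chr1:169655251-169655500, plus strand, Col15a1 is chr4:47207762-47208011, plus strand, Nid1 is chr13:13437352-13437601, plus strand and Col3a1 is chr1:45311288-45311537, plus strand.
Timp3: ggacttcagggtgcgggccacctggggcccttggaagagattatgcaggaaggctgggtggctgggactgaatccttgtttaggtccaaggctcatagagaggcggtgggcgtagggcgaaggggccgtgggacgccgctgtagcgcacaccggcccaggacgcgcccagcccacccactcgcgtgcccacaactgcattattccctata
Ecm1: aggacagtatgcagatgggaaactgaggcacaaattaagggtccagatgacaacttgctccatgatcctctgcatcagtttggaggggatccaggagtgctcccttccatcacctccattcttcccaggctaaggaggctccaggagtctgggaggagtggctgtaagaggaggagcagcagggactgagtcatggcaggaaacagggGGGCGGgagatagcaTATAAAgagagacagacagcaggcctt
Rgs5: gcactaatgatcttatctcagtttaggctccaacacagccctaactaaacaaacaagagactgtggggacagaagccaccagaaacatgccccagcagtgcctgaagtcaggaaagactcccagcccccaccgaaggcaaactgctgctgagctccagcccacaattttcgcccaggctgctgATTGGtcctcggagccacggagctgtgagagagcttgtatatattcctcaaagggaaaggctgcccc
Col15a1: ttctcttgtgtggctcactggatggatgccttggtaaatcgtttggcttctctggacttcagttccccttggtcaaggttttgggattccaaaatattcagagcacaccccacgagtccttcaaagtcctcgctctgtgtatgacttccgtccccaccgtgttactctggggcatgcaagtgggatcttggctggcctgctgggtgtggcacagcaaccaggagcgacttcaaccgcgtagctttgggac
Nid1: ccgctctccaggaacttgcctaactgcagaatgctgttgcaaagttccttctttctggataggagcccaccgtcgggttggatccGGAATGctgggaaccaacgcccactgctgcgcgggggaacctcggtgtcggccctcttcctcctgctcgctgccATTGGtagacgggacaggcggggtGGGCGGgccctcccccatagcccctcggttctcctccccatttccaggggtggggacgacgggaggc
Col3a1: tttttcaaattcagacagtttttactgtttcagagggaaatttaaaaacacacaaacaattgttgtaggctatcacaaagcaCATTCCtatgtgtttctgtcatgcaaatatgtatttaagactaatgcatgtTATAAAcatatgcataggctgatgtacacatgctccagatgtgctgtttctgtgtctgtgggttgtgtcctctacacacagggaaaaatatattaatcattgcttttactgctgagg

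Col3a1 and Ecm1 hold a TATAAA match, starting 117 and 27 bases before the RefSeq start. A TATAAA match was found in 11.4% of the 35 windows of members and in 12.4% of all 32851 windows. The reversed CCAAT lies in Rgs5 and Nid1, a motif in 34.3% of the members' windows and 33.8% of all. GGGCGG, the GC box, lies in Ecm1, Nid1 and, past the end of the printed stretch, Timp3, and was in 57.1% of the members' windows and 32.7% of all. These shares were not adjusted for base composition. G and C made up 35.2% (Col3a1) to 65.6% (Timp3) of the windows of the 6 genes, with a median of 52.4% over all windows. The window of Col15a1 holds none of the motifs. CATTCC lies in Col3a1 and, reversed, in Nid1, and was in 17.1% of the members' windows and 12.6% of all, and the CArG box in 2.86% and 1.47%. No test was made of these shares, and a match is not evidence of a site.

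Of 17 listed collagen genes outside the members, 8 were tested, 3 rose and 1 fell, where 12.1% of all tested genes rose and 11.2% fell. Col12a1, a fibril-associated collagen gene, rose from 1.93 ± 0.128 to 14.9 ± 4.16 CPM (SD, n = 3; log2 fold change 2.94, adjusted p = 0.000321 by edgeR). Col18a1, the basement membrane collagen gene related to Col15a1 and expressed by hepatocytes, rose with 0.49 and Col27a1 with 0.84, while Col5a3 fell with -0.64. All 4 were also past the threshold without HKO 2, with values of 3.09, 0.54, 0.98 and -0.57.

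Of 26 listed genes of collagen modification, export and degradation, 18 were tested, 4 fell and none rose, where 11.2% of all tested genes fell and 12.1% rose. Of the 18, 12 had a positive log2 fold change with all libraries, and the median was 0.13. Without HKO 2 the median was -0.35, and 5 fell and none rose (12.2% and 12.5% of all tested genes). The crosslinking enzyme gene Loxl4 fell from 18.6 ± 5.42 to 1.77 ± 0.557 CPM (SD, n = 3; log2 fold change -3.38, adjusted p = 0.000517 by edgeR). Ppib and P3h1, parts of the complex that hydroxylates prolines of collagen chains, fell with -0.81 and -0.80, and the prolyl hydroxylase subunit and disulfide isomerase gene P4hb with -0.45. Without HKO 2, P4hb did not pass (-0.42, adjusted p = 0.0523), and Loxl4, Ppib and P3h1 did.

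Of 19 further stellate cell genes 15 were tested, 6 rose and 1 fell, where 12.1% of all tested genes rose and 11.2% fell. HKO 2 was the highest library in 12 of the 15, against 16.4% of all tested genes. The median log2 fold change of the 15 was 1.11 with all libraries and 0.68 without HKO 2. In the fit without HKO 2, 6 rose and 2 fell (12.5% and 12.2% of all tested genes). Vipr1, a receptor gene for vasoactive intestinal peptide, and Colec11, a soluble lectin gene, rose by 1.51 and 1.45 on the log2 scale (adjusted p = 0.00817 and 0.0116 by edgeR). Tmem56 rose with 0.72, from 177 ± 20.5 to 291 ± 33.2 CPM (SD, n = 3). Without HKO 2 these 3 passed as well, with values of 1.11, 1.03 and 0.75.

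In the list of myofibroblast genes and matrix targets of TGF-beta, 18 of 30 were tested, 4 rose and 1 fell. Of all tested genes 12.1% rose and 11.2% fell. HKO 2 was the highest library in 15 of the 18, against 16.4% of all tested genes. The median log2 fold change of the 18 was 1.02 with all libraries and 0.47 without HKO 2. In the fit without HKO 2, 3 rose and 1 fell (12.5% and 12.2% of all tested genes). Ctgf, a matricellular growth factor gene, rose by 2.71 on the log2 scale (adjusted p = 0.00506 by edgeR). Cyr61, of the same family as Ctgf, rose with 0.48, and Spon2, a secreted spondin gene, fell with -2.18 (adjusted p = 0.000412). Without HKO 2 these 3 passed too, with 2.14, 0.44 and -2.33.

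Markers of other cell types moved with HKO 2 and with the genotype, and their part in the members' values was not tested. All 22 endothelial markers were highest in HKO 2. They summed to 1241 CPM there, 400.2 and 456 CPM in HKO 1 and HKO 3, and 246 to 365 CPM in WT. Of these markers, 3 of 22 passed the test as higher in HKO, where 12.1% of all tested genes did. Of the 10 mesothelium markers, 7 were highest in HKO 2. Msln, which defines the mesothelium that covers the liver, was at 4.88 CPM in HKO 2 and had no count in any other library, and Upk3b was at 3.90 CPM there and at most 0.0556 CPM elsewhere. The list summed to 882 CPM in HKO 2, 968 to 1121 CPM in the other HKO libraries and 967 to 1272 CPM in WT, almost all of it the keratin genes Krt8 and Krt18 that hepatocytes share, and Muc16 was at 0 throughout.

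Portal fibroblast markers were highest in HKO 2 in 8 of 11. They summed to 128 CPM there, 86.1 and 76.1 CPM in HKO 1 and HKO 3, and 73.3 to 94.8 CPM in WT, with Gli1 at 0 throughout. Fbln2, a fibulin gene, was at 13.03 CPM in HKO 2 and at most 0.786 CPM elsewhere. Vascular smooth muscle markers were highest in HKO 2 in 3 of 8 (88.6 CPM in HKO 2, 68.2 and 94.7 CPM in the other HKO libraries and 51.9 to 60.1 CPM in WT), and Cnn1, Actg2 and Pln were at 0 throughout. None of the 16 macrophage markers and none of the 12 hepatocyte markers was highest in HKO 2. The macrophage list summed to 656, 454 and 652 CPM in HKO 1, 2 and 3 and to 461 to 492 CPM in WT. In HKO 15 of its 16 genes rose and 1 fell, where 12.1% of all tested genes rose and 11.2% fell. Of the 12 hepatocyte markers 5 rose and 1 fell. Bile duct markers were highest in HKO 2 in 4 of 10 (76.4 to 97.3 CPM in HKO and 104 to 208 CPM in WT). This list includes Sox9, the deleted gene itself, so its sum and calls are not independent of the deletion. Of the 5 tested, 3 fell and none rose. Lymphocyte markers were highest in HKO 2 in 4 of 12 (19.5 to 25.6 CPM in HKO and 1.11 to 3.36 CPM in WT). The higher sum was not general to this list, which holds the immunoglobulin genes Ighm and Igkc. Its median log2 level minus the WT mean was 0 in HKO 1 and HKO 3 and 0.28 in HKO 2, against -0.16 to 0.34 in WT. Of the 12, 2 were at 0 throughout, Cd8a among them, and only 3 were tested, of which 2 rose. None of the 5 tested portal fibroblast markers and the 2 tested mesothelium markers passed, and 1 of 2 tested smooth muscle markers rose.

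**Figure D4:**
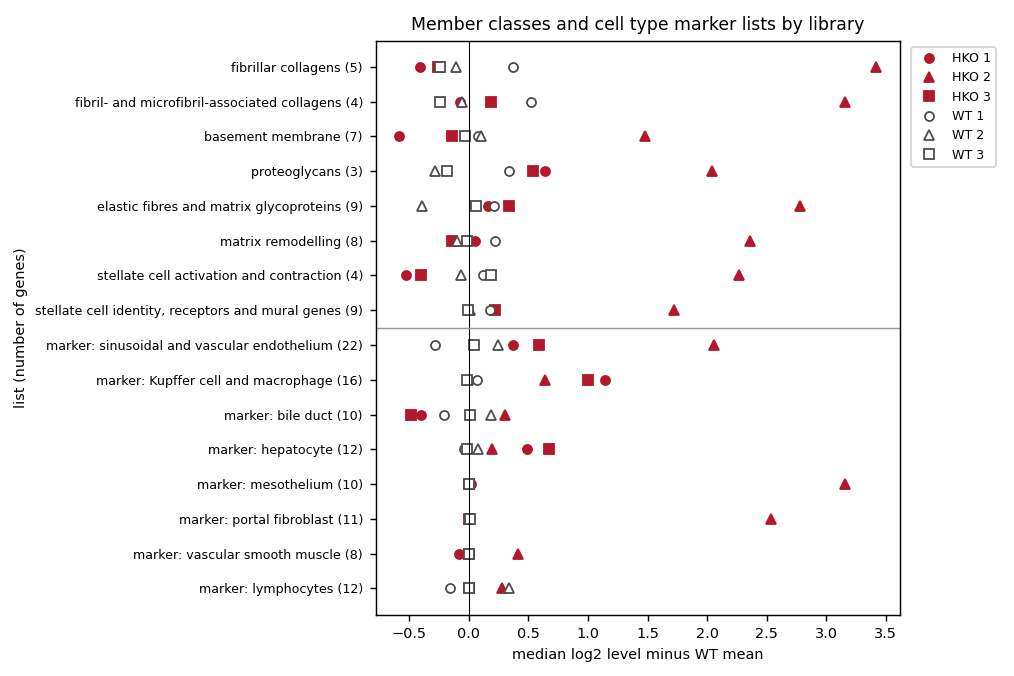
Median log2 level minus the WT mean (horizontal axis) of each class of members (above the grey line) and of each list of cell type markers (below it), 1 symbol per library, HKO filled red and WT open grey. HKO 2 (red triangle) lies at 3.42 for fibrillar collagens, 2.06 for endothelium and 3.16 for mesothelium, while macrophage markers lie highest in HKO 1 and HKO 3.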

How the data were processed

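Gene expression was measured by RNA sequencing in 6 liver libraries (3 HKO, 3 WT), grouped by their titles. Per the labels' protocols, mRNA was separated from DNase-treated total RNA and fragmented, with no strand-marking step described. HISAT2 2.0.4, StringTie 1.3.0, mm10 and GRCm38.p4 are named in the submitters' processing notes without settings. The authors deposited unnormalized read counts and FPKM per gene and library in 1 table, per the file headers. No source used here says how multi-mapped reads were assigned.

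Counts were tested with edgeR 4.0.16 under R 4.3.3 (filterByExpr, TMM, quasi-likelihood F-test, Benjamini-Hochberg over all genes kept). Each standard error is the size of the log2 fold change over the root of its F statistic. CPM are TMM-scaled, and log2 levels have a prior count of 2. Alternatives used DESeq2 1.42.0, limma-voom (limma 3.58.1), other scalings and filters, a replicate block and each library left out. Exon overlaps come from GENCODE M21 (GRCm38), where all 49 members were found by identifier and 38 have the table's coordinates.

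The members and all lists were chosen with earlier results of these data known. Full statistics are given for members past the threshold with all libraries or without HKO 2 and for the member of each class with the highest mean FPKM. Outside the members, at most the 4 genes with the smallest p of a list are named, and some of these are not reported here. Other genes were named after their values were seen. No 2 libraries of a group agreed within sampling noise (chi-square per gene 12.8 to 133, where sampling noise gives about 1).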

Additional observations from a re-analysis of the deposited data

How the results depend on the processing

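The count of members higher in HKO was 6 with all libraries and 3 by limma-voom and with a replicate block. In both of these Timp3, Timp2 and Ecm1 were called and Dcn, Reln and Rgs5 were not. The count was 8 when libraries were scaled by their totals alone, 9 by DESeq2, which gave an adjusted p for 35 of the 40 members (not for Col1a1, Col1a2, Col3a1, Col5a1 and Col6a2), and 6 with DESeq2 size factors, with no filter, with at least 10 counts in 3 libraries and without mitochondrial genes. When each library was left out in turn, it ranged from 1 to 7 and the count of members lower from 1 to 3. Over all genes, the same left-out libraries gave 722 to 1589 higher and 682 to 1546 lower, where all libraries gave 1516 and 1401. The median log2 fold change of the tested members was 0.69 by limma-voom, 0.77 with the replicate block and 0.04 without HKO 2, against 1.13. Of the tested members, 16 turned negative without HKO 2. Among those given with full statistics, the ones that changed sign with a library left out were Nid1 (0.12 without HKO 1, 0.02 without HKO 3, range -0.90 to 0.12) and, without HKO 2, Col3a1 (range -0.61 to 2.44), Col4a1 (-0.12 to 0.98) and Vim (-0.10 to 1.28). Pdgfrb turned to -0.07 without WT 3, and Eln, Pdgfrb and Tagln turned negative by limma-voom and with the replicate block. The cause was not tested. Whether replicate numbers pair the libraries is not stated in the labels. The correlations of same-numbered deviations from the group means were -0.00192, 0.00248 and 0.0717 for numbers 1, 2 and 3. Not every library correlated best with its own number, but values from 3 libraries a group cannot show that a pairing is absent. The 9 members filtered out of the test had adjusted p from 0.155 to 0.651 when no filter was used. Lhx2, also among them, passed without HKO 3 (2.01, adjusted p = 0.0360).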

Other observations

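Serpinh1, the collagen chaperone gene, was chosen after its values were seen. It reached 39.5 CPM in HKO 2, with 4.19 and 4.10 CPM in HKO 1 and HKO 3, and WT had 9.39, 5.51 and 7.26 CPM. It did not pass the test with all libraries (log2 fold change 1.10, adjusted p = 0.370 by edgeR) and fell without HKO 2 (-0.83, adjusted p = 0.0439). Smtn, a smooth muscle marker also chosen after its values were seen, had 3.55, 14.5 and 4.51 CPM in HKO 1, 2 and 3, with WT at 18.8, 13.9 and 13.1 CPM. It did not pass the test with all libraries (log2 fold change -1.03, adjusted p = 0.157 by edgeR) and fell without HKO 2 (-1.92, adjusted p = 0.000756).

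Within a library, the ratio of paired collagen chains by FPKM can be read without scaling between libraries. Col4a1 over Col4a2 was 1.91, 1.56 and 1.78 in HKO 1, 2 and 3 and 1.49, 1.36 and 1.42 in WT 1, 2 and 3, so that every HKO ratio was above every WT ratio, also in HKO 2, where both chains were raised. Col1a2 over Col1a1 was 0.770, 0.494 and 1.34 in HKO and 0.659, 1.02 and 0.651 in WT, which overlap. Col6a1 over Col6a2 overlapped too, at 4.22, 2.91 and 4.63 in HKO and 4.37, 1.95 and 4.87 in WT. No test was made of these ratios, which were chosen after the counts were seen.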
